A study of Mus musculus with 50 samples.

Results

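Radial glia are the stem cells of the embryonic brain, and 10 genes that they express (Tnc, Aldoc, Fabp7, Slc1a3, Hes1, Hes5, Sox2, Pax6, Vim and Nes) are described here across 18 RNA libraries of whole brain from mouse embryos at E13.5. The 10 genes were chosen by name as a group, out of 11708 genes in the count table, and Tnc and Aldoc lead the group because they were selected on their low level in gtf2i/gtf2i embryos of these same libraries. All 10 were found in the table, and none was removed by the filter on low counts. In gtf2i/gtf2i brains Tnc stood at 36.9%, Aldoc at 42.2% and Slc1a3 at 78.8% of the wt mean, whereas Fabp7, Hes1, Sox2 and Pax6 lay between 93% and 106% of it and Vim, Nes and Hes5 between 131% and 134%. In ird1/ird1 brains none of the 10 genes passed the test, as was true of nearly all genes (0.00854% of all genes passed). Since values of the gtf2i set took part in the choice, its contrasts and calls are given for the 10 genes as a description. Only the ird1 set serves as a test of them.

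The study compared embryos of strain FVB/ANTJ carrying mutations of Gtf2i with embryos carrying mutations of Gtf2ird1, neighbouring genes for transcription factors of the region deleted in Williams syndrome. Each set of 9 libraries held 3 of wt, 3 whose label names the mutant allele once (gtf2i or ird1, read here as 1 mutant allele) and 3 whose label names it again after a slash, as gtf2i/gtf2i and as ird1/ird1. The labels describe neither the alleles nor a treatment, and give every library the same strain, stage and tissue. The labels do not say whether the libraries of a group are separate embryos, so p-values measure the spread between these libraries.

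Radial glia line the ventricles and stretch a long fibre to the outer surface of the brain, along which newborn neurons migrate. They divide to renew themselves and to give rise to neurons and intermediate progenitors, and later to astrocytes. Notch signalling holds them in the progenitor state: a ligand on a neighbouring cell releases the intracellular part of the Notch receptor, which joins the DNA-binding protein RBPJ and switches on Hes1 and Hes5, repressors of genes that drive neurons to form.

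Total counts were between 3239117 and 7371483 per library, and every pair of replicates differed by more than sampling noise, with a chi-square of at least 2.9 for each degree of freedom. Gtf2i was at 624 ± 30.7 CPM (counts scaled to library size) in wt, 368 ± 6.23 in gtf2i and 82.5 ± 0.797 in gtf2i/gtf2i (SD, n = 3 each). Gtf2ird1 was at 98.2 ± 13.5 CPM in wt of the ird1 set, 149 ± 1.93 in ird1 and 223 ± 4.21 in ird1/ird1 (SD, n = 3 each). The order of Gtf2ird1 follows the labels, but the labelled mutants hold more of this RNA and not less, so the groups are called the libraries labelled ird1 and ird1/ird1. Gtf2ird1 was also at 267 ± 21 CPM in gtf2i/gtf2i against 92.4 ± 7.32 in wt of that set (SD, n = 3), so a level of its RNA above wt is common to gtf2i/gtf2i and ird1/ird1.

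Tnc encodes tenascin C, a large glycoprotein of the extracellular matrix around radial glia (ENSMUSG00000028364, chr4:63959785-64047015, minus strand, GRCm38.p6). Aldoc encodes aldolase C, the brain form of a glycolytic enzyme and later a marker of astrocytes and of stripes of Purkinje cells (ENSMUSG00000017390, chr11:78323073-78327781). Their promoters are shown because both genes were low in the same 3 libraries, with the 250 bases before the first RefSeq start of GRCm38.p6 written 5′ to 3′ on the strand of the gene. Capitals mark the core of the RBPJ site, searched as TGGGAA on both strands.
Tnc: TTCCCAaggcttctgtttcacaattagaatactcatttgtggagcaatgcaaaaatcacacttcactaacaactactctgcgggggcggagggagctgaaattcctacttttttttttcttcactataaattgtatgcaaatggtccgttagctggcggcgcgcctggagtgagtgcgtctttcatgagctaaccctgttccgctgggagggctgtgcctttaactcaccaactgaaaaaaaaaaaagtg
Aldoc: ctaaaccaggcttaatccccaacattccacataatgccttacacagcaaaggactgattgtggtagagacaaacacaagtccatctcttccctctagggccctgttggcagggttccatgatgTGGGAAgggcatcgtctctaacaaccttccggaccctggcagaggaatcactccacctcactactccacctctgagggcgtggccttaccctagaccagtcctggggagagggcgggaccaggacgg

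These windows are chr4:64047016-64047265 for Tnc and chr11:78322823-78323072 for Aldoc. The Tnc core lies at the outer end of its window, 250 bases before the start, and the Aldoc core begins 127 bases before the start. Tnc also holds TATAAA, the TATA box, 126 bases before this start, and 3 E boxes (CANNTG), while the Aldoc window holds neither. Each gene has another RefSeq start, and the windows before those hold the RBPJ core as well, 81 bases before the Tnc start and 17 before that of Aldoc. The 9 members with a RefSeq promoter have 12 such windows, of which those of Tnc overlap each other. The RBPJ core was in 6 of the 12 (of Tnc, Aldoc, Fabp7 and Hes5), beside 21.6% of all 32851 promoters of the same length. N boxes (CACNAG), sites of Hes repressors, were in 5 of the 12 windows and in 36.7% of all. E boxes were in 6 of 12 and in 66.2% of all, CCAAT in 6 of 12 and in 33.8% of all, and TATAAA in 4 of 12 and in 12.4% of all. These are matches of letters within a window, overlapping matches of different motifs included, and say nothing about a factor that binds there.

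Tnc had 45.2, 40.8 and 43.7 CPM in the 3 wt libraries of the gtf2i set. It had 31.9, 51.1 and 57.1 CPM in gtf2i, and 12.0, 15.01 and 20.8 CPM in gtf2i/gtf2i. Every gtf2i/gtf2i library lay below every wt and gtf2i library, and the gtf2i libraries spread to both sides of wt. The group means were 43.2 ± 2.23, 46.7 ± 13.1 and 15.9 ± 4.44 CPM (SD, n = 3 each), a log2 fold change in gtf2i/gtf2i of −1.43 (SE 0.216) against wt and of −1.55 (SE 0.215) against gtf2i. Among all 11708 genes the first of these ranked 3 from the lowest. In the ird1 set Tnc had 57.4, 45.4 and 46.0 CPM in wt, 43.4, 54.7 and 46.4 in ird1, and 56.5, 36.1 and 54.6 in ird1/ird1. The 3 groups of that set overlapped, and all 9 values lay above the 3 gtf2i/gtf2i values.

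Aldoc had 54.2, 38.2 and 57.9 CPM in wt of the gtf2i set, 56.1, 58.3 and 74.8 in gtf2i, and 20.4, 23.6 and 19.4 in gtf2i/gtf2i. Again each gtf2i/gtf2i library was below each of the other 6, and the gtf2i mean (63.1 ± 10.2 CPM) was above the wt mean (50.1 ± 10.5 CPM; SD, n = 3 each). The log2 fold change in gtf2i/gtf2i was −1.27 (SE 0.169) against wt and −1.59 (SE 0.167) against gtf2i. Its levels in the ird1 set were 70.9, 52.3 and 73.6 CPM in wt, 45.5, 81.2 and 59.2 in ird1, and 61.2, 56.4 and 48.8 in ird1/ird1. These groups overlapped too. In bulk brain RNA, fewer radial glia and less of an RNA per cell cannot be told apart.

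Aldoa, the broadly expressed aldolase, stood at 272 ± 38.5 CPM in wt and 337 ± 61.7 in gtf2i/gtf2i (SD, n = 3 each), a log2 fold change of 0.30 that did not pass edgeR's quasi-likelihood test (adjusted p = 0.286). Per length of transcript, in CPM per kilobase (RPKM), Aldoa was at 176 and Aldoc at 17.98 in wt of the gtf2i set. Tnr, the neural tenascin, was at 15.7 ± 4.23 CPM in wt and 11.9 ± 6.42 in gtf2i/gtf2i (SD, n = 3 each; log2 fold change −0.39, adjusted p = 0.627 by edgeR).

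**Figure D1:**
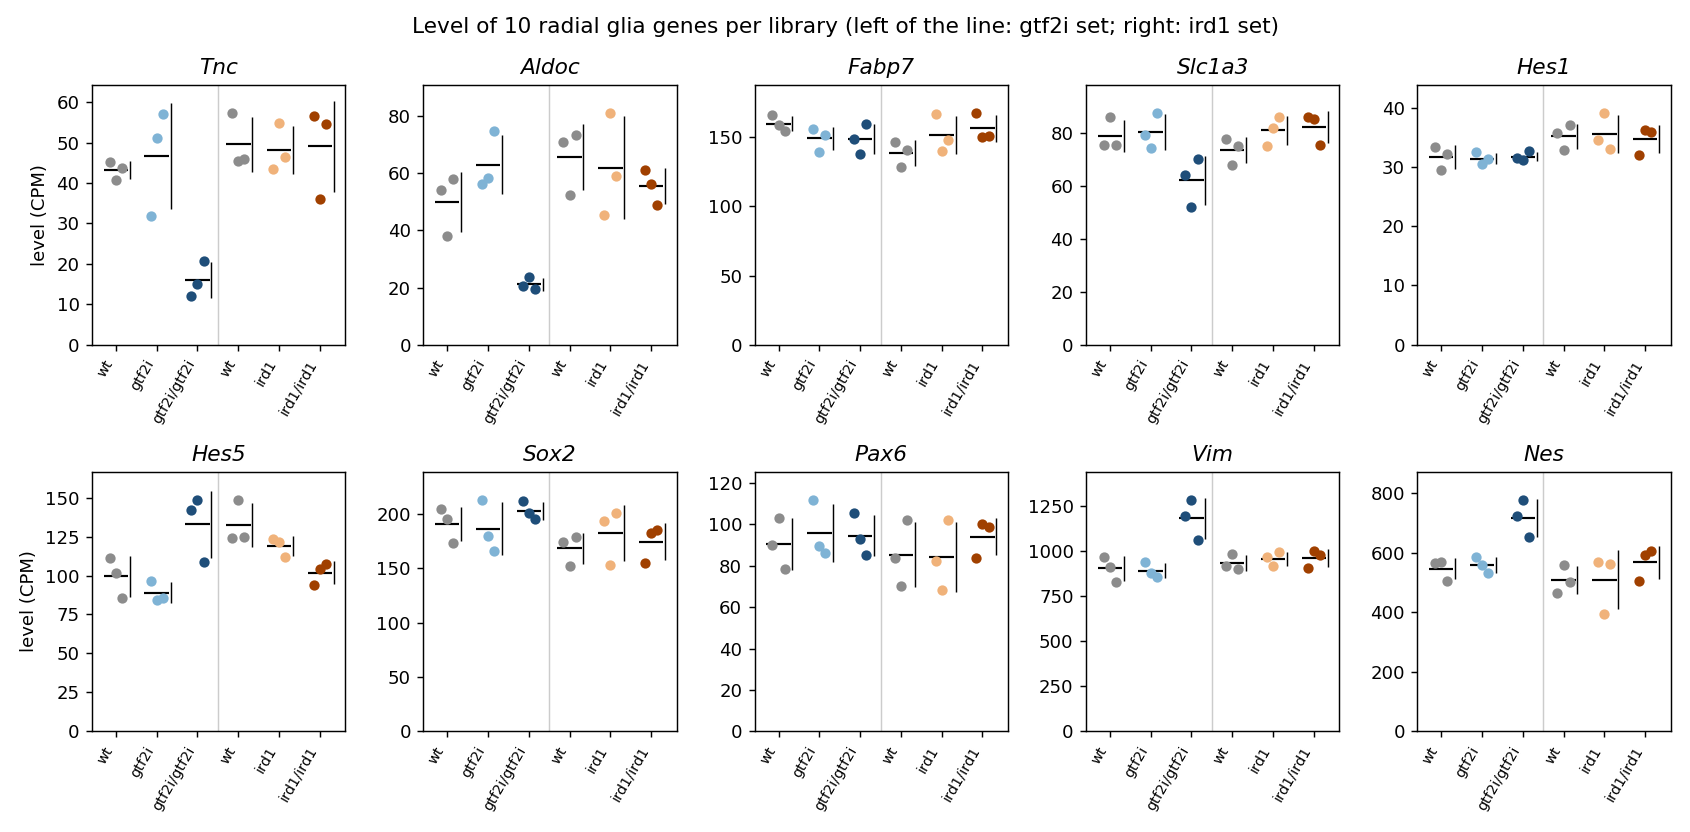
Level in CPM (vertical axis, from 0) of each of the 10 genes in 18 libraries by genotype, with points for libraries, horizontal bars for group means and vertical bars for ± 1 SD (n = 3). The 3 gtf2i/gtf2i points of Tnc (12.0 to 20.8 CPM) and of Aldoc (19.4 to 23.6 CPM) lie below all others, and those of Vim (1061 to 1285 CPM) and Nes (651 to 779 CPM) above the wt and gtf2i points of their set.

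Fabp7 encodes the brain lipid-binding protein, a carrier of fatty acids and a classic marker of radial glia (chr10:57784923-57788450). It was the steadiest of the 10, with 128 CPM in the lowest and 168 CPM in the highest of 18 libraries. The gtf2i/gtf2i mean was 149 ± 10.7 CPM against 160 ± 5.58 in wt (SD, n = 3 each; log2 fold change −0.11, SE 0.0837). Without gtf2i/gtf2i replicate 2 the log2 fold change was −0.056. Fabp5, its close relative in the table, had a log2 fold change of −0.01 (adjusted p = 0.986 by edgeR), and Fabp3 was not in the table.

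Slc1a3 encodes GLAST, the glutamate transporter of radial glia and astrocytes (chr15:8634124-8710807). Its levels were 75.7, 86.0 and 75.4 CPM in wt of the gtf2i set, 79.2, 74.2 and 87.7 in gtf2i, and 64.3, 52.2 and 70.4 in gtf2i/gtf2i. The gtf2i/gtf2i libraries were the lowest 3 of the 9, by a log2 fold change of −0.34 (SE 0.117) against wt and −0.37 (SE 0.116) against gtf2i. Slc1a2, the gene for the other glial glutamate transporter GLT-1, was at 257 ± 69.2 CPM in gtf2i/gtf2i and 236 ± 36 in wt (SD, n = 3 each; log2 fold change 0.12, adjusted p = 0.821 by edgeR).

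Hes1 and Hes5, the Notch effectors, had unlike values. Hes1 (chr16:30065357-30067796) had 33.4, 29.5 and 32.2 CPM in wt and 31.4, 31.2 and 32.7 in gtf2i/gtf2i, with a log2 fold change of −0.0023 (SE 0.105) whose sign turned with the scaling (0.0051 by RLE size factors). Hes5 (chr4:154960626-154962372) had 111, 102 and 85.4 CPM in wt of the gtf2i set, 96.7, 84.5 and 85.6 in gtf2i, and 142, 148 and 108 in gtf2i/gtf2i. Replicate 3 of gtf2i/gtf2i lay within the wt range and the other two above it, and all 3 lay above the gtf2i libraries. The log2 fold change was 0.41 (SE 0.124) against wt and 0.57 (SE 0.125) against gtf2i.

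Of the 9 genes with a RefSeq promoter, Hes5 alone held the RBPJ core at 2 places in a single window of 250 bases, and runs of 30 bases show them, with the core in capitals (chr4:154960685-154960714 and chr4:154960829-154960858, plus strand). The start used for this window lies inside the gene span given above, which begins further upstream, so these runs are within that span.
Hes5, core 226 bases before the start: agggcgagcgcgTTCCCAcagcccggacat
Hes5, core 82 bases before the start: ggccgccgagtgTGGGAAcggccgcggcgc

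In the upstream run the core stands on the opposite strand, as TTCCCA, and in the downstream run on the strand of the gene. Hes6 and Hey1, relatives of Hes5, were at 174 ± 19.2 and 58.1 ± 9.11 CPM in gtf2i/gtf2i, against 154 ± 23.3 and 58.5 ± 6 in wt (SD, n = 3 each). Their log2 fold changes of 0.17 and −0.02 had adjusted p-values of 0.537 and 0.9754 by edgeR.

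Sox2 and Pax6 encode transcription factors of neural stem cells, Pax6 in those of the dorsal telencephalon among other regions. Sox2 (chr3:34649995-34652461) ranged from 152 to 213 CPM over the 18 libraries and Pax6 (chr2:105668896-105698410) from 68.5 to 112 CPM. In gtf2i/gtf2i their means were 203 ± 8.61 and 94.6 ± 10 CPM, against 191 ± 15.7 and 90.6 ± 12.4 in wt (SD, n = 3 each), and the libraries overlapped. Sox2 lies within the noncoding gene Sox2ot, which was at 31.5 ± 2.17 CPM in gtf2i/gtf2i and 30.5 ± 3.89 in wt (SD, n = 3 each). Pax6 overlaps Elp4, and Tnc overlaps the annotated gene 8030451A03Rik, which is not analysed here. The library kit does not mark strand, so reads of overlapping genes cannot be told apart, those of Tnc included. The Sox2 relatives Sox1 and Sox3 had log2 fold changes of 0.05 and 0.07 against wt, with adjusted p-values of 0.871 and 0.859 by edgeR.

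Vim and Nes encode vimentin and nestin, the intermediate filament proteins of the radial fibre. Vim (chr2:13574311-13582826) had 969, 913 and 829 CPM in wt of the gtf2i set, 937, 876 and 858 in gtf2i, and 1194, 1285 and 1061 in gtf2i/gtf2i. Nes (chr3:87971093-87980451) had 565, 570 and 506 CPM in wt, 584, 559 and 532 in gtf2i, and 724, 779 and 651 in gtf2i/gtf2i. For both genes the 3 gtf2i/gtf2i libraries were the highest of the 9, with replicate 2 highest and replicate 3 closest to wt. The log2 fold changes against wt were 0.38 (SE 0.0938) for Vim and 0.39 (SE 0.0877) for Nes, and those against gtf2i 0.40 (SE 0.0938) and 0.36 (SE 0.0877). In the ird1 set Vim stayed within 902 and 999 CPM and Nes within 395 and 607 CPM, with overlapping groups.

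**Figure D2:**
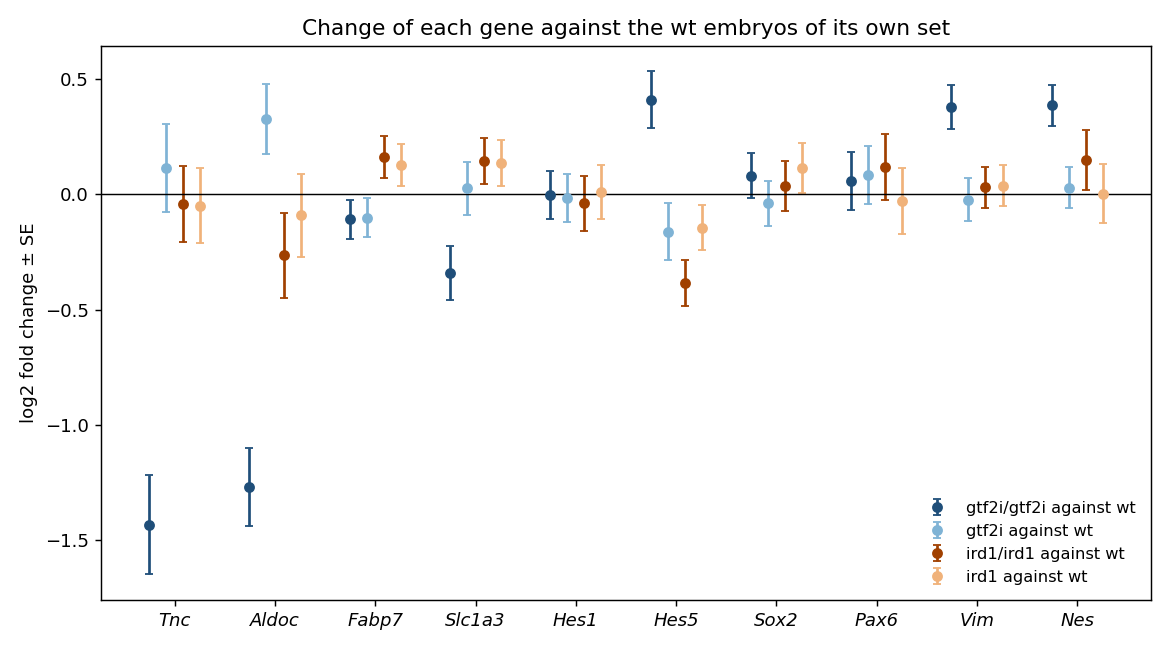
Log2 fold change of each gene against the wt libraries of its own set (vertical axis), with bars of ± 1 SE from edgeR's fit (3 libraries against 3). Tnc (−1.43) and Aldoc (−1.27) stand far below 0 in gtf2i/gtf2i, while the ird1/ird1 values lie between −0.38 (Hes5) and 0.16 (Fabp7).

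Counted over the 10 genes, gtf2i/gtf2i against wt had 2 with an adjusted p under 0.05 by edgeR, here termed called, both lower (Tnc and Aldoc), beside 0.53% of all genes called lower and 0.94% called in either direction. In 5 of the 10 the libraries of gtf2i/gtf2i and wt did not overlap (Tnc, Aldoc and Slc1a3 lower, Vim and Nes higher), beside 16.8% of all genes. Title numbers are shared between these groups, and whether they pair the libraries is not known. With them as a block 5 genes were called. Tnc and Aldoc were lower (3.3% of all genes called lower) and Hes5, Vim and Nes higher (2.03% of all genes). Without gtf2i/gtf2i replicate 3 the count was 6 with no block, Slc1a3 being added among the lower, while the share of all genes called rose to 9.9%. DESeq2 called 4 of the 10 (Tnc and Aldoc lower, Vim and Nes higher), beside 2.86% of all genes it adjusted. These counts describe genes picked with this contrast in view.

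Against gtf2i, the same gtf2i/gtf2i libraries gave 2 called lower (Tnc and Aldoc, beside 1.79% of all genes) and 3 called higher (Hes5, Vim and Nes, beside 1.33%), or 3.12% of all genes in either direction. In 6 of the 10 the libraries did not overlap, beside 19.2% of all genes. The calls of Hes5, Vim and Nes were lost without gtf2i replicate 2, without gtf2i replicate 3, without gtf2i/gtf2i replicate 1 and without gtf2i/gtf2i replicate 2, where 2 of the 10 were called. In these 4 fits the share of all genes called also fell, to 0.572%, 0.598%, 1.14% and 0.709%. Without wt replicate 2, which shares the estimate of the spread, the calls of Vim and Nes were lost and 3 of the 10 were called, beside 2.48% of all genes. The call of Nes alone was lost without gtf2i replicate 1, with those groups alone in the fit and with all 18 libraries in it, where 4 of the 10 were called, beside 2.93%, 2.93% and 4.05% of all genes. The contrasts share the 3 gtf2i/gtf2i libraries.

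In libraries labelled gtf2i none of the 10 genes was called against wt by edgeR (0.00854% of all genes were) and none by DESeq2, none had an unadjusted p under 0.05 (1.6% of all genes), and in none were the libraries free of overlap (7.27% of all genes). Log2 fold changes lay between −0.16 for Hes5 and 0.33 for Aldoc. Aldoc thus had its mean above wt in gtf2i and below wt in gtf2i/gtf2i, contrasts that share the 3 wt libraries. Without wt replicate 2 the log2 fold change of Aldoc in gtf2i was 0.17. That of Hes5 was −0.26 without wt replicate 3 and −0.071 without wt replicate 1.

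**Figure D3:**
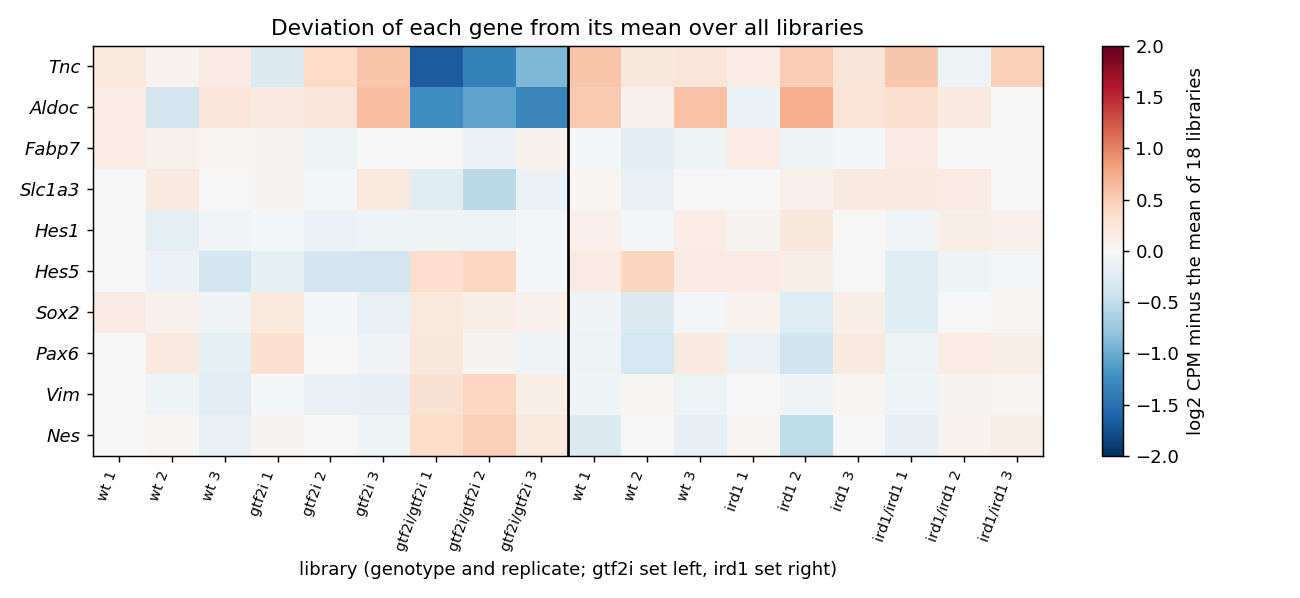
Deviation of log2 CPM from the mean of 18 libraries (colour, red above and blue below) for each gene (rows) and library (columns, gtf2i set left of the line). The 3 gtf2i/gtf2i columns are blue for Tnc and Aldoc and red for Vim and Nes, and the ird1 set shows no column of that kind.

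The reason given for the choice lies in the gtf2i set, so the 10 were tested in the ird1 set, although earlier results of both sets were known when the genes were grouped. In ird1/ird1 against wt, the quasi-likelihood test of edgeR, with p-values adjusted over all genes, called 0 of the 10, with 0.00854% of all genes called, and DESeq2 also called 0. At an unadjusted p under 0.05 there was 1, Hes5, beside 16.1% of all genes. The 95% interval of the log2 fold change was −0.44 to 0.36 for Tnc (estimate −0.04, SE 0.164) and −0.71 to 0.18 for Aldoc (estimate −0.27, SE 0.183). Without 1 library the Aldoc estimate ran from −0.38 (wt replicate 2 left out) to −0.17 (wt replicate 3 left out), with no call. The difference between the sets was not tested.

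Hes5 had 123.8, 148.7 and 124.6 CPM in wt of the ird1 set, 123.6, 121.8 and 111.7 in libraries labelled ird1, and 93.8, 104.2 and 107.6 in those labelled ird1/ird1. Every wt library was above every library labelled ird1, by as little as 123.8 against 123.6, and every library labelled ird1 above every one labelled ird1/ird1. The log2 fold change in ird1/ird1 was −0.38 against wt (SE 0.0995, adjusted p = 0.296 by edgeR) and −0.24 against ird1 (SE 0.098, adjusted p = 0.766), and in ird1 against wt −0.14 (SE 0.0987, adjusted p = 0.997). None of these passed the threshold. Within title number 11902, with 1 library a group, the values were 148.7, 123.6 and 107.6 CPM in wt, ird1 and ird1/ird1. Without that wt library (replicate 2) the log2 fold change was −0.29 in ird1/ird1 and −0.059 in ird1 against wt. This wt library had the lowest total of the 18, 3239117 counts. Its chi-square for each degree of freedom was 17.7 and 15.2 against wt replicates 1 and 3, and that between those replicates was 2.9. Hes5 in gtf2i/gtf2i had its mean on the other side of its own wt (0.41), with a wt level of 99.5 ± 13.2 CPM in the gtf2i set against 132 ± 14.2 in the ird1 set (SD, n = 3 each).

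In ird1/ird1 against wt Fabp7 was higher without overlap (150 to 168 CPM against 128 to 147), at a log2 fold change of 0.16 (SE 0.0912, adjusted p = 0.351 by edgeR). Together with Hes5 this made 2 of the 10 without overlap between ird1/ird1 and wt, beside 26.9% of all genes, so the members' share was no larger than that of all genes. The values for Slc1a3, Nes, Pax6, Sox2, Vim and Hes1 lay between −0.04 and 0.15. Of these, Nes was 0.098 without ird1/ird1 replicate 3 and 0.24 without ird1/ird1 replicate 1. Pax6 was 0.015 without wt replicate 2 and 0.27 without wt replicate 3. Vim was 0.016 without wt replicate 3 and 0.081 without ird1/ird1 replicate 1. Libraries labelled ird1 gave 0 called against wt (0% of all genes) and 0 at an unadjusted p under 0.05 (3.02% of all genes), with Hes5 alone free of overlap (7.04% of all genes) and log2 fold changes between −0.14 and 0.13. In ird1/ird1 against ird1 edgeR again called 0 (0% of all genes), 1 had an unadjusted p under 0.05 (Hes5, beside 4.66% of all genes) and 1 was free of overlap (Hes5, beside 17% of all genes). DESeq2 called 0 of the 10 in both.

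On a scale per length of transcript the 10 genes covered a wide range. In wt of the gtf2i set the mean RPKM was 309 ± 24.1 for Vim, 182 ± 6.34 for Fabp7, 92.9 ± 7.64 for Sox2, 89.3 ± 5.77 for Nes and 78.1 ± 10.3 for Hes5 (SD, n = 3 each). Below these came Hes1 at 21.6 ± 1.36, Pax6 at 20.5 ± 2.8, Aldoc at 17.98 ± 3.77, Slc1a3 at 17.8 ± 1.35 and Tnc at 6.08 ± 0.314 (SD, n = 3 each). Neighbours in this order overlapped from Sox2 to Hes5 and from Hes1 to Slc1a3, and did not overlap elsewhere. In wt of the ird1 set Vim and Fabp7 were again the highest pair and Tnc the lowest, with Hes5 next below the pair at 104 ± 11.2 RPKM and Aldoc above Pax6 at 23.5 ± 4.16 (SD, n = 3 each). Over the 18 libraries the highest level divided by the lowest was 4.77 for Tnc and 4.19 for Aldoc, whose lowest values are the gtf2i/gtf2i libraries they were selected on. Over the other 15 libraries it was 1.80 for Tnc and 2.13 for Aldoc, beside a median of 1.6005 over all genes. For the remaining 8 members it was then between 1.21 (Vim) and 1.76 (Hes5).

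Tnc and Aldoc were compared with each other in the ird1 set, outside the libraries that they were selected on. Over its 9 libraries Pearson's r of log2 CPM was 0.38 (p = 0.31, exact two-sided permutation test) and Spearman's rho 0.55 (p = 0.133, exact permutation test). This is 1 relation, with no adjustment. Without the 2 libraries farthest from the median of Tnc, r was 0.334 (p = 0.439, exact permutation test, n = 7), and within the 6 libraries of title number 11610 it was 0.556 (p = 0.258, exact permutation test). The title number 11902 has 3 libraries, too few for a value. A relation of the pair was thus not detectable in the ird1 set.

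**Figure D4:**
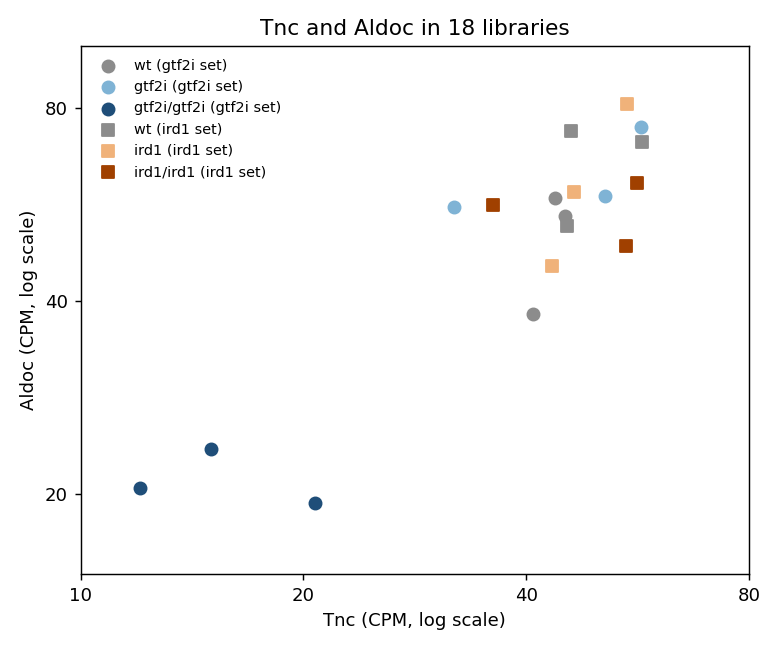
Level of Aldoc against Tnc in CPM, both axes logarithmic, with 1 point per library (circles for the gtf2i set, squares for the ird1 set). The 3 gtf2i/gtf2i libraries lie alone at the lower left (Tnc 12.0 to 20.8 CPM, Aldoc 19.4 to 23.6 CPM), and the other 15 form 1 cloud.

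As a description, r of Tnc with Aldoc over all 18 libraries was 0.89, with the 3 gtf2i/gtf2i libraries apart from the rest, and 0.466 over the 15 without them. By r over 18 libraries the 5 genes most like Tnc were Ifngr2 (0.93), Camk2b (0.93), Acat1 (0.93), Bzw2 (0.93) and Rnf112 (0.93). Without gtf2i/gtf2i these values were between 0.434 (Acat1) and 0.687 (Ifngr2). The 5 most like Aldoc were Nfix (0.95), Ndrg2 (0.94), Tnfrsf21 (0.93), Sema4d (0.93) and Acat1 (0.93), with 0.703 (Acat1) to 0.865 (Sema4d) over the 15 libraries. Acat1 was in both lists. Nfix encodes a nuclear factor I protein of maturing radial glia and Ndrg2 a protein of astrocytes. Both are from the Aldoc list, and the cell types of the other genes were not examined. Aldoc stood 50th among the genes most like Tnc, and Tnc 20th among those most like Aldoc, of 11707.

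Around the 10 genes, 9 lists of related genes held 199 other genes, of which 169 were in the table. The lists were chosen with earlier results of these data known, so their shares of calls are a description. In gtf2i/gtf2i against wt 4 of these were called (2.37%), 2 higher and 2 lower, beside 0.94% of all genes. Their median log2 fold change was 0.11, and that of all genes 0.00. Thbs1, for thrombospondin 1 of the matrix, rose from 30.9 to 55.7 CPM (log2 fold change 0.84, SE 0.0976, adjusted p = 0.000583 by edgeR). Pax3, a transcription factor of the dorsal neural tube, midbrain and hindbrain, rose by 0.82 on the log2 scale (SE 0.181, adjusted p = 0.0485 by edgeR). Eno2, the neuronal enolase, fell by 0.60 (SE 0.119, adjusted p = 0.0312 by edgeR), and Eomes, the factor of cortical intermediate progenitors, fell by 0.66 (SE 0.133, adjusted p = 0.034 by edgeR). With the block on the title number 34 were called (25 higher and 9 lower), beside 5.33% of all genes, 2.03% higher and 3.3% lower. Thbs1 was called in all 9 fits without 1 library, Eno2 and Eomes in 4 and Pax3 in 3. Eno2 had an adjusted p of up to 0.164, Eomes of up to 0.147 and Pax3 of up to 0.183 among these fits.

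Among other radial glia and neural progenitor genes (37 in the table), 0 were called by edgeR against wt, 15 had an unadjusted p under 0.05 (14.4% of all genes did), and 26 had a log2 fold change above 0. The smallest p was that of Rfx4, a factor of radial glia and cilia, at a log2 fold change of 0.48 (adjusted p = 0.0855 by edgeR, and 0.0246 with the block). In the Notch list (37) edgeR also called 0, with 14 at an unadjusted p under 0.05. Dlk1, for an atypical Notch ligand, had a log2 fold change of 0.52 (adjusted p = 0.051 by edgeR, and 0.00172 with the block). The 23 genes of glycolysis had 1 called lower (Eno2) and a median of 0.19. With the block 6 were called higher in the radial glia list, 5 higher and 1 lower in the Notch list, and 7 higher and 2 lower in glycolysis. Of the 9 glutamate transporter and glutamine genes none was called by edgeR and 2 had an unadjusted p under 0.05. Slc1a1, for a neuronal transporter, was at 4.3 against 8.53 CPM there (log2 fold change −0.96, adjusted p = 0.137 by edgeR, and 0.0356 with the block). Without gtf2i/gtf2i replicate 3 the value for Slc1a1 was −1.44, and in that fit alone of the 9 it was called (adjusted p = 0.00799 by edgeR). Of the 11 intermediate filament genes and linkers besides Vim and Nes, 0 were called by edgeR and 0 had an unadjusted p under 0.05. Nefm, a neurofilament gene, had the smallest p at 0.18 (adjusted p = 0.52 by edgeR), and 0.077 without gtf2i/gtf2i replicate 3. The 24 genes of tenascins, their matrix partners and receptors had 1 called higher (Thbs1) and a median of 0.16. Of 19 Sox, Pou and Pax genes 1 was called higher (Pax3), and of 15 genes of intermediate progenitors and neurogenesis 1 was called lower (Eomes), with medians of 0.07 and 0.12. With the block these 3 lists had 2 higher and 2 lower, 3 higher and 1 lower, and 2 higher and 2 lower, and the glutamate list had 1 lower.

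Against gtf2i, gtf2i/gtf2i had 17 of the 169 called (10.1%, beside 3.12% of all genes), 10 higher and 7 lower. This share is likewise a description, for lists chosen with earlier results known. The median log2 fold change of the 169 was 0.12. Rfx4 rose by 0.72 on the log2 scale (adjusted p = 0.0116 by edgeR). In the Notch pathway Dtx4 (0.39), Dlk1 (0.56) and the ligand gene Jag1 (0.36) rose and Dtx1, a target and modulator of Notch, fell by 0.50 (adjusted p-values of 0.0121, 0.0219, 0.0401 and 0.0382 by edgeR). In glycolysis and its supply Slc16a3, a lactate exporter (1.27), Slc2a1, a glucose transporter (0.49), and Pdk1, a brake on pyruvate entry into mitochondria (0.54), rose. Eno2 fell by 0.65 and Hk1, a hexokinase, fell by 0.45, so that genes of this list went both ways. Adjusted p-values of these 5 lay between 0.0125 and 0.0358 by edgeR.

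Pax3 (1.15), Sox13 (0.51) and Thbs1 (0.62) rose too in gtf2i/gtf2i against gtf2i, and Sox5 (fell by 0.69), Sox8 (fell by 0.78), the syndecan gene Sdc3 (fell by 0.42) and Eomes (fell by 0.91) were lower. Sox5 acts in neurons of the deep cortex and Sox8 in glial progenitors. Their adjusted p-values by edgeR lay between 0.00287 (Eomes) and 0.049985 (Sdc3). In every fit without 1 library Eomes, Pax3 and Thbs1 were called. The other 14 lost the call in 2 to 7 of the 9, each of them without gtf2i replicate 2, where 3 of the 169 were called. Slc1a5 (0.45, adjusted p = 0.136 by edgeR) and Nefm (0.31, adjusted p = 0.177 by edgeR) had the smallest p of their lists, with no call there.

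**Figure D5:**
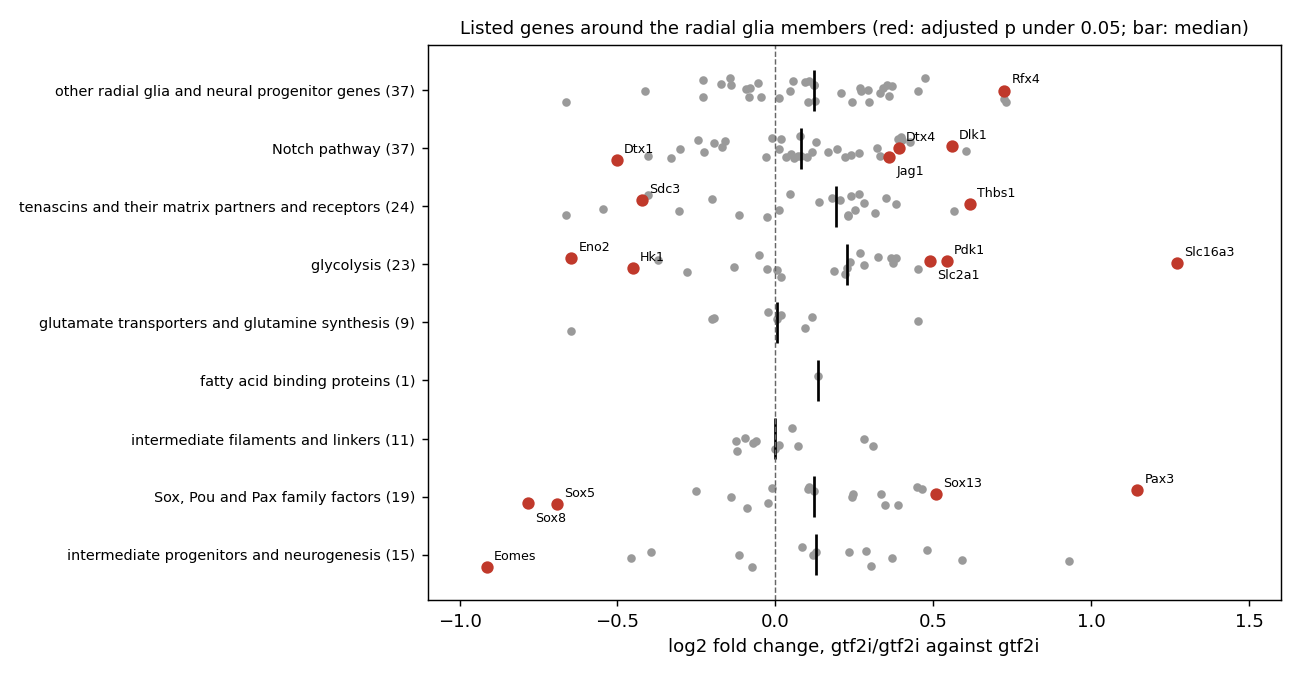
Log2 fold change in gtf2i/gtf2i against gtf2i (horizontal axis) of the 169 genes of 9 lists besides the 10 members (rows, with the number in the table; a gene may stand in more than 1 list). Named red points have an adjusted p under 0.05, bars are medians, and called genes stand on both sides of 0 in the Notch, matrix, glycolysis and Sox, Pou and Pax rows.

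In ird1/ird1 against wt 0 of the 169 were called by edgeR, 42 had an unadjusted p under 0.05 (16.1% of all genes did), and the median log2 fold change was −0.04. The smallest p of each list belonged to Slc1a2 (0.49, SE 0.135), Jag2 (−0.51), Vcan (0.40), Gapdh (−0.47), Nefm (0.35), Pou2f1 (0.40), Gadd45g (−0.49) and Fabp5 (−0.17), all with an adjusted p of at least 0.296 by edgeR. Without wt replicate 2 the values of Jag2, Gadd45g and Fabp5 were −0.32, −0.24 and −0.07. Slc1a2 is in both the radial glia and the glutamate list. The DESeq2 fit called 0 of the 169 as well. Counts of 0 were also found by edgeR in gtf2i against wt, ird1 against wt and ird1/ird1 against ird1, beside 0.00854%, 0% and 0% of all genes. There 3, 9 and 15 of the 169 had an unadjusted p under 0.05, beside 1.6%, 3.02% and 4.66% of all genes.

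Markers of regions and other cell types also differed in the gtf2i/gtf2i libraries in which Tnc and Aldoc were low. The 19 telencephalon markers, led by Lhx2, summed to 1420 to 1535 CPM in gtf2i/gtf2i, 1886 to 2141 in wt and 2118 to 2182 in gtf2i. Of these 19, 7 were called lower against wt, beside 0.53% of all genes called lower and 0.41% called higher. The 11 markers of choroid plexus and roof plate, led by Ttr, summed to 312 to 345 CPM against 376 to 465 in wt, with 1 called lower and 9 of the 11 having a log2 fold change above 0. The 8 red blood cell markers, led by Hbb-y, summed to 5790 to 9184 CPM against 4091 to 5314, with 2 called higher. The 10 midbrain and hindbrain markers, led by En2, summed to 440 to 654 CPM against 458 to 497, with 1 called higher. Against gtf2i, 10 of the 19 telencephalon markers and 1 of the 11 of choroid plexus and roof plate were called lower. There 5 of the 8 red blood cell and 2 of the 10 midbrain and hindbrain markers were called higher. Of all genes 1.79% were called lower and 1.33% higher in that contrast. The part of these cells and regions in the levels of the 10 genes was not tested.

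Among the 3 gtf2i/gtf2i libraries themselves, markers of neurons, cycling cells and mesenchyme differed. Against wt edgeR called 0 genes of these lists, and 5 of 15, 4 of 16 and 8 of 17 had an unadjusted p under 0.05, beside 14.4% of all genes. Against gtf2i it called 1 neuronal marker lower, 0 cycling markers and 2 mesenchyme markers higher, beside 1.79% of all genes called lower and 1.33% higher. Log2 fold changes against wt were below 0 for 13 of the 15 neuronal markers and above 0 for 16 of 16 cycling and 14 of 17 mesenchyme markers. The 15 neuronal markers, led by Tubb3, summed to 5751, 5871 and 7660 CPM in gtf2i/gtf2i replicates 1, 2 and 3, against 7079 to 7866 in wt. The 16 cycling markers, led by Top2a, summed to 2355, 2291 and 1799 CPM, against 1696 to 1865 in wt. The 17 mesenchyme and meninges markers, led by Fn1, summed to 2342, 2712 and 1788 CPM, against 1631 to 1848 in wt. Replicate 3, whose sums lay within the wt range for all 3 lists, was also the library nearest to wt in Tnc, Hes5, Vim, Nes and Slc1a3, but not in Aldoc. Without it Tnc had a log2 fold change of −1.69 against wt and Vim one of 0.46. Endothelium (14 markers, led by Kdr), microglia and macrophages (6, led by Csf1r) and oligodendrocyte precursors (4, led by Olig2) summed to 552 to 637, 95.4 to 113 and 80.1 to 83.6 CPM in gtf2i/gtf2i, against 508 to 608, 68.8 to 102 and 63 to 80.6 in wt. No marker in the table was at 0, and markers that the table lacks are not analysed here.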

How the data were processed

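The authors' deposited values are whole-number read counts per gene in 18 libraries, with no normalization, and 1 transcript length per gene in bases. Trimmomatic, STAR, HTSeq and the build mm10 are named in the submitters' processing notes, without versions. Per the labels, libraries were built after removal of ribosomal RNA, and their kit does not mark strand. The smallest count was 10, and each gene had about 3 CPM or more in every library, so genes silent in a group are not analysed here. The 32 chromatin samples were not analysed here.

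Counts were normalized by edgeR's TMM factors and tested with edgeR 4.0.16 (quasi-likelihood, R 4.3.3) in each set of 9 libraries with 6 residual degrees of freedom. The Benjamini-Hochberg adjustment covered 11708 genes, of which filterByExpr removed 0, and genes with an adjusted p under 0.05 are termed called. SE is the size of the log2 fold change divided by the root of F. CPM uses TMM over 18 libraries, log2 CPM a prior count of 2, and RPKM is CPM per kilobase of the transcript length. The gtf2i set had a biological coefficient of variation of 10.4% and the ird1 set one of 10%. Tested on simulated counts with 200 changed genes of 11708, the test for ird1/ird1 against wt recovered 98.5%, with 10 false calls. Recovery of log2 fold changes as small as those of the 10 members in ird1/ird1 against wt (−0.38 to 0.16) was not tested. Alternatives were DESeq2 1.42.0, other scaling, filters, samples, a length correction and a replicate block. Identifiers matched Ensembl names for 11704 genes, and promoters are from RefSeq (GRCm38.p6, the build of mm10), with 9 of 10 members matched.

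Sample titles begin with a number that the labels do not explain. In gtf2i/gtf2i against wt, deviations of same-numbered libraries from their group means correlated at 0.103, 0.377 and 0.52, all above a cut of 0.1. Whether the numbers pair libraries was not tested against libraries of unlike numbers. In the other contrasts not every pair was above 0.1, or only 2 numbers exist.

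Named genes were the 10 members, and from each of 9 lists up to 3 called genes with the smallest p per direction in gtf2i/gtf2i against wt, gtf2i/gtf2i against gtf2i and ird1/ird1 against wt, or otherwise the gene with the smallest p. The rule also took each marker list's highest gene, the 5 genes most like Tnc and Aldoc, close paralogs, Gtf2i and Gtf2ird1. Members and lists were chosen with earlier results of these data known.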

Additional observations from a re-analysis of the deposited data

How the results depend on the processing

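Calls of members in the gtf2i set concern genes selected on its gtf2i/gtf2i libraries and are counted here as a description. None of the 10 members was called in gtf2i against wt or in an ird1 contrast under any of them. Against wt the members called were 3 where the fit held all 18 libraries (Vim added) and 4 by DESeq2. They were 5 under each of the replicate block, the removal of a trend with transcript length, and both. Genes called in that contrast went from 110 to 322 by DESeq2, 31 where the fit held those 2 groups alone, 262 where it held all 18 libraries, 624 under the replicate block, 294 after the length trend was taken out and 847 under both. Listed genes called were, in the same order, 17, 1, 12, 34, 13 and 45. Against gtf2i the 365 genes became 892 under the block and 1097 under block and length together, and the 17 listed genes became 30 by DESeq2, 27 over 18 libraries, 46 under the block, 27 for length and 61 for both. In gtf2i against wt 1 gene became 6 by DESeq2, 5 with those groups alone, 3 over 18 libraries, 2 under the block and 5 for both. In ird1 against wt 0 became 1 by DESeq2 and over 18 libraries, and in ird1/ird1 against ird1 0 became 1 by these and with those groups alone. The block changed no call of a member in the ird1 set, where 2 numbers are too few to pair libraries. The causes were not tested.

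Leaving out 1 library gave 2 to 6 members, 28 to 1159 genes and 1 to 48 listed genes called in gtf2i/gtf2i against wt, and 2 to 6, 67 to 1376 and 3 to 63 against gtf2i, highest without gtf2i/gtf2i replicate 3. Genes called ranged from 1 to 4 in gtf2i against wt and from 0 to 1 in ird1 against wt and in ird1/ird1 against ird1.

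Log2 fold changes near 0, none called, changed sign. With the length trend taken out, and then with the block too, Hes1 in ird1/ird1 against wt was 0.083 and 0.088. In ird1/ird1 against ird1 these gave −0.0888 and −0.0884 for Tnc, −0.0093 and −0.0107 for Slc1a3, 0.026 and 0.025 for Hes1 and 0.0191 for Vim under both, and Vim was 0.0056 over 18 libraries. Nes in ird1 against wt was −0.0038 by RLE size factors, −0.0042 by DESeq2, −0.05003 for length and −0.046 for both.

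Leaving out 1 library moved ird1/ird1 against wt from −0.15 to 0.16 for Tnc, −0.074 to 0.026 for Hes1 and −0.023 to 0.12 for Sox2. It moved ird1 against wt from −0.16 to 0.085 for Tnc, −0.35 to 0.095 for Aldoc, −0.078 to 0.069 for Hes1, −0.18 to 0.12 for Pax6 and −0.077 to 0.15 for Nes. In ird1/ird1 against ird1 the ranges were −0.11 to 0.21 for Tnc, −0.34 to 0.084 for Aldoc, −0.018 to 0.11 for Fabp7, −0.033 to 0.068 for Slc1a3, −0.093 to 0.037 for Hes1, −0.18 to 0.0045 for Sox2 and −0.029 to 0.038 for Vim. Fabp5 in gtf2i/gtf2i against wt ranged from −0.063 to 0.087. In gtf2i against wt, given as a description, the ranges were −0.061 to 0.32 for Tnc, 0.17 to 0.45 for Aldoc, −0.041 to 0.087 for Slc1a3, −0.063 to 0.022 for Hes1, −0.15 to 0.04 for Sox2, −0.04 to 0.18 for Pax6, −0.08 to 0.03 for Vim and −0.023 to 0.065 for Nes. In gtf2i/gtf2i against wt Hes1 was 0.0051 by RLE size factors and by DESeq2, 0.0041 over 18 libraries, 0.0042 with a mean CPM of at least 5 and 0.0032 with those groups alone, and ranged from −0.05 to 0.035 without 1 library, as Pax6 did from −0.029 to 0.16. Against gtf2i the ranges were −0.11 to 0.11 for Pax6, −0.056 to 0.046 for Fabp7 and −0.0083 to 0.04 for Hes1, which was −0.024 for length and −0.029 for both. In gtf2i against wt Hes1 was 0.022 for length and 0.026 for both. Without a change of sign, leaving out 1 library moved by over 1.5 times Fabp7 (−0.16 to −0.056) and Sox2 (0.021 to 0.13) in gtf2i/gtf2i against wt, Sox2 (0.046 to 0.23) and Nefm (0.2 to 0.38) against gtf2i, and Fabp7 (−0.13 to −0.057) and Hes5 (−0.26 to −0.071) in gtf2i against wt. It did so in ird1 against wt for Fabp7 (0.062 to 0.18), Slc1a3 (0.085 to 0.19), Hes5 (−0.19 to −0.059), Sox2 (0.049 to 0.21) and Vim (0.014 to 0.078), and in ird1/ird1 against ird1 for Pax6 (0.026 to 0.31) and Nes (0.00066 to 0.24).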
